A study of Mus musculus with 4 samples.

Results

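Cytosolic ribosomal protein genes encode the proteins that, with ribosomal RNA, build the small and large subunits of the ribosomes in the cytosol. They were chosen here by symbol: rows of the count table named Rpl or Rps with a number and at most 1 suffix letter, with Rpsa, Rplp0, Rplp1, Rplp2 and Fau, and without the S6 kinases. The rule found 85 of 22865 gene rows, 34 of the small and 51 of the large subunit, and used no measured value. The counts come from RNA-seq of γδ T cells from the lungs of female C57Bl/6 mice aged 10 weeks, with 2 libraries from Aire-/- and 2 from Aire+/+ animals. Aire is the transcriptional regulator through which thymic epithelium displays tissue-restricted proteins to developing T cells, and the study asks how its loss alters γδ T cells that make interleukin-17. Libraries were made with Smart-Seq2, which copies whole transcripts from small inputs, here 500 sorted cells. The gate took viable CD45+ γδ TCR+ cells that lacked CD27, TCRβ and the Vγ chains 1, 2, 4 and 5. The labels do not say whether the libraries came from separate mice or pools, so the p-values rest on library-to-library spread alone, and that spread may be technical.

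The small subunit holds the messenger RNA and its decoding centre, and the large subunit forms peptide bonds and releases the growing chain through a tunnel. Vertebrate ribosomal protein messages begin with a short pyrimidine tract at the cap, the TOP motif, through which growth signals acting on mTOR and Larp1 control their translation. Ribosomal RNA comes instead from RNA polymerase I, as the 45S precursor that the Rn45s row stands for and that contains the mature ribosomal RNA sequences. Resting lymphocytes make few ribosomes, and their production rises steeply on activation.

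The start regions of 8 members show how far the pyrimidine tract can be seen around their annotated starts. The 5 members Fau, Rps10, Rpl13a, Rpl10 and Rpl37 had log2 fold changes between genotypes (Aire-/- minus Aire+/+) below 0, and Rps28, Rplp2 and Rpl4 lay above 0; the 8 were chosen after these values were seen. Each sequence is from RefSeq (GRCm38.p6), runs 5′ to 3′ on the gene's strand from 40 bases before the annotated start to 20 after it, and has each CTTTC in capitals.
Fau (chr19:6057907-6057966, plus strand): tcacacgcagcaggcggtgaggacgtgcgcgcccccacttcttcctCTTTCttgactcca
Rps10 (chr17:27635225-27635284, minus strand): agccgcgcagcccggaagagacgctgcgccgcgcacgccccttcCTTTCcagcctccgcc
Rpl13a (chr7:45128726-45128785, minus strand): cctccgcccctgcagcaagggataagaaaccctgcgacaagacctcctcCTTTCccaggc
Rpl10 (chrX:74270776-74270835, plus strand): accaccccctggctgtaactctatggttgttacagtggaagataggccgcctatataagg
Rpl37 (chr15:5116573-5116632, plus strand): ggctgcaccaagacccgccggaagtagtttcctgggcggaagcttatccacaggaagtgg
Rps28 (chr17:33824543-33824602, minus strand): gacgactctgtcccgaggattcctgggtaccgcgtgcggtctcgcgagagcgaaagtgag
Rplp2 (chr7:141447611-141447670, plus strand): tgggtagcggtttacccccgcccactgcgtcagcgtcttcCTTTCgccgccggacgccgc
Rpl4 (chr9:64173347-64173406, plus strand): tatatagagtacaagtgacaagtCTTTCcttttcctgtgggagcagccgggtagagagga
In the 50 bases on each side of the start, CTTTC stood on the gene's strand in 33 of 64 members with a RefSeq entry (51.6%), against 14.6% of 27025 genes. On the opposite strand it stood in 9 of 64 members (14.1%), against 13.8% of all genes. The longer CTCTTTC, which contains CTTTC, stood on the gene's strand in 13 of 64 members (20.3%) against 1.62% of genes, and on the opposite strand in 1 member (1.56%) against 1.49%. CCGGAAG, the core bound by ETS family factors, stood on the gene's strand in 10 of 64 members (15.6%) against 3.18% of genes, and on the opposite strand in 5 (7.81%) against 3.16%. These matches are letters in a window and do not show a site in use. Printed members on both sides of 0 included some with and some without CTTTC. Rpl37 had CTTTC within 50 bases of its start but outside its printed stretch, so it counts among the 33.

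The 85 genes took a smaller share of the counts in both Aire-/- libraries than in both Aire+/+ libraries. The share was 5.58% (Wilson 95% interval 5.54 to 5.63) and 5.20% (5.16 to 5.24) of all counts in the Aire-/- libraries. It was 6.39% (6.35 to 6.43) and 6.45% (6.40 to 6.49) in the Aire+/+ libraries. The groups did not overlap and the Aire-/- libraries lay farther apart from each other than the Aire+/+ libraries. The means were 5.39 ± 0.273% and 6.42 ± 0.0412% (SD, n = 2 each), a ratio of 0.840. Intervals cover counting error only and leave out the spread between libraries. The reads carry no molecular identifiers, so amplified copies were counted as separate reads and the intervals may be too narrow. An exact two-sided permutation test of 2 against 2 libraries cannot go below p = 0.33. In such bulk libraries fewer cells of a type and less RNA per cell cannot be told apart.

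Rn45s lay the other way. It took 20.4% and 19.4% of counts in the Aire-/- libraries, against 17.4% and 16.2% in the Aire+/+ libraries, again without overlap. Smart-Seq2 primes on poly(A), which mature ribosomal RNA lacks. The log2 fold change of Rn45s was 0.29 (approximate SE 0.071, adjusted p = 0.617, edgeR's quasi-likelihood test with Benjamini-Hochberg adjustment) and it did not pass. Over the 12 alternatives run the log2 value was 0.22 to 0.36, and the call depended on the setting. It passed with no filter on low counts and with the replicate number as a block. Without Aire+/+ replicate 1 it stood at 0.36, and without Aire-/- replicate 2 at 0.33. Each fit with a library left out has 1 library in a genotype, so its call of Rn45s is not given. Counts of ribosomal protein genes per count of Rn45s were 0.274 and 0.269 in the Aire-/- libraries, against 0.368 and 0.397 in the Aire+/+ libraries. A larger Rn45s share lowers every other share, so the shares were also taken of the counts without Rn45s. They were then 7.01% and 6.45% in Aire-/- against 7.74% and 7.70% in Aire+/+ libraries, a ratio of 0.872, and still did not overlap.

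**Figure D1:**
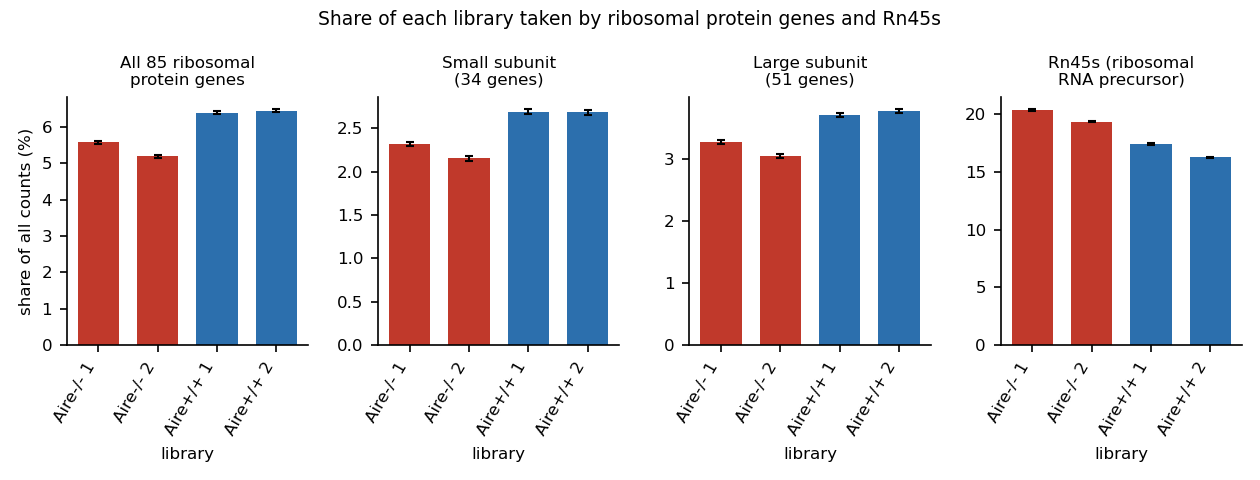
Share of all counts (percent, bars from 0) in each of the 4 libraries for all 85 ribosomal protein genes, the small and large subunit genes, and Rn45s, with Wilson 95% intervals for counting error. Red bars are Aire-/- and blue bars Aire+/+ libraries; the ribosomal protein shares run from 5.20% to 6.45% and are lower in both Aire-/- libraries, while Rn45s runs from 16.2% to 20.4% and is higher in both.

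Both subunits shared this pattern. Small subunit genes took 2.32% and 2.15% of counts in the Aire-/- libraries, against 2.69% and 2.68% in the Aire+/+ libraries, a ratio of means of 0.832. Large subunit genes took 3.27% and 3.04% in the Aire-/- libraries, against 3.70% and 3.76% in the Aire+/+ libraries, a ratio of 0.845. Small subunit counts were 0.710 and 0.708 times the large subunit counts in Aire-/- and 0.728 and 0.713 times in Aire+/+ libraries. Both Aire-/- ratios lay under both Aire+/+ ratios, but the gap between the groups (0.710 to 0.713) was smaller than the distance between the Aire+/+ libraries. Without the 3 most abundant genes of each subunit (Rpsa, Rps4x, Rps3a1, Rpl4, Rplp0 and Rpl5) the ratios overlapped, at 0.644 and 0.636 against 0.653 and 0.638.

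Levels of single genes were compared per kilobase of transcript, as CPM, counts scaled to a common library total with the TMM factors of edgeR, averaged over the 4 libraries. Among the 78 members that passed the filter on low counts, the median was 1021 CPM per kilobase for 33 small subunit genes and 748 for 45 large subunit genes. The 8 highest were Rps4x (2401), Rpl19 (2335), Rpl10 (2043), Fau (1971), Rps3a1 (1921), Rpl9 (1792), Rpsa (1741) and Rps6 (1728). Rps4x and Rpl10 are X-linked, Rpl19 lies near the mouth of the exit tunnel, Rpsa is the laminin receptor protein of the small subunit, and Rps6 is the protein that S6 kinases phosphorylate. The 5 lowest that passed were Rpl7l1 (66.2), Rps2 (64.5), Rpl37 (47.8), Rpl22l1 (31.7) and Rps4l (31.5). Rps2 and Rpl37 are core components of every ribosome.

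**Figure D2:**
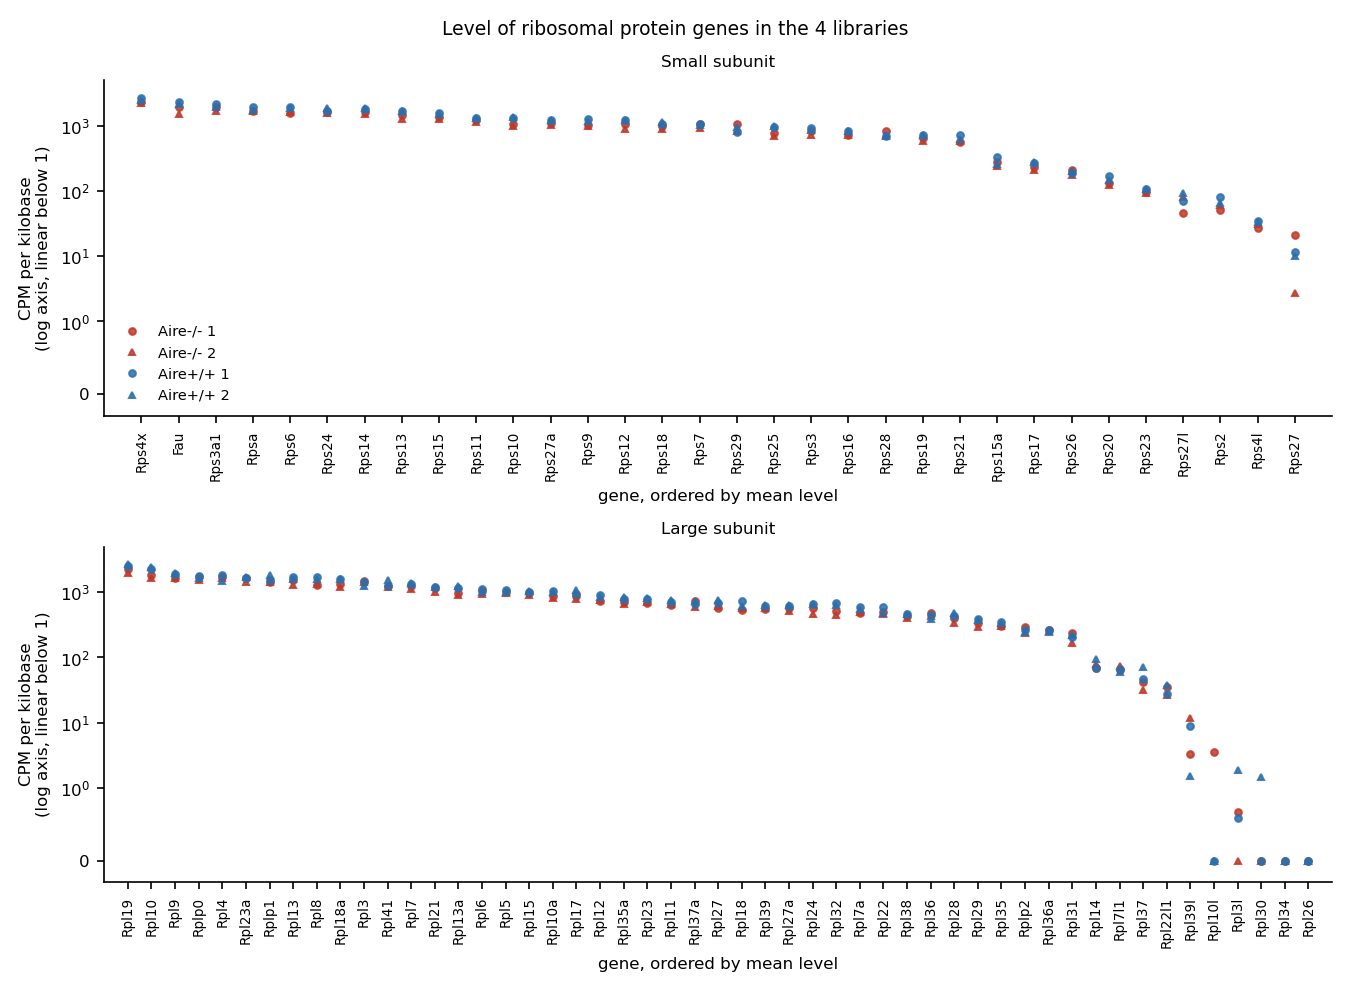
Level of the ribosomal protein genes (all but 2 of the 85) in CPM per kilobase of transcript (log axis, linear below 1), small subunit genes above and large subunit genes below, ordered by mean; circles are replicate 1 and triangles replicate 2, red Aire-/- and blue Aire+/+. Most genes lie between 100 and 2401, and at most of them the 4 libraries nearly coincide. A short tail, where the libraries spread more, reaches 0 in all 4 libraries at Rpl26 and Rpl34.

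The 7 members that did not pass the filter had at most 8 counts in any library, while the 78 that passed had at least 15 in every library. Rpl26 and Rpl34 had 0 counts in all 4 libraries, which allows up to 3 counts or 2.37 to 2.71 CPM, and Rpl30 had 1 count in Aire+/+ replicate 2 only. Rps27 had 8 and 1 counts in the Aire-/- pair, against 5 and 4. These 4 encode core ribosomal proteins that every cell uses. The other 3 are paralogs of narrow expression: Rpl3l, the striated muscle form of Rpl3, had 0 to 3 counts, Rpl10l, the testis form of Rpl10, had 4 counts in Aire-/- replicate 1 and 0 elsewhere, and Rpl39l had 1 to 7 counts.

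The core members near 0 have a near-identical copy that is itself a row of the count table. Transcripts of 82 of the 85 members shared at least one 50-base word with another annotated gene (GENCODE M21), mostly with pseudogenes, and the median share was 53.5% of a transcript's 50-base words. For 11 members at least 30% of the words also stood in another row of the table, a threshold chosen after these values were seen. These were Rps27 (98.6%), Rplp2 (65.1%), Rpl26 (60.6%), Rpl22l1 (51.9%), Rpl34 (50.6%), Rpl14 (49.3%), Rpl30 (47.8%), Rpl31 (46.1%), Rps15a (35.7%), Rpl37 (31.3%) and Rpl21 (31.1%). Their median level was 47.8 CPM per kilobase, against 918 for the 74 other members. Rpl21, at 1143, was the 1 of the 11 above the latter median. Rps2, at 64.5, shared 79.0% of its words with other genes but 12.8% with rows of the table. The copies of the 4 core members near 0, Gm15772 (beside Rpl26), Gm12191 (Rpl30), Rpl34-ps1 and Rps27rt, each had 0 counts in every library. Other copies were counted: BC004004 (beside Rpl21) had 88 to 119 counts and Gm13826 (Rpl37) 21 to 29. How reads that fit several genes were counted is not given in the sources used here, and its part in these levels was not tested. The values of these 11 members and of Rps2 are therefore uncertain as levels of expression. Members with high levels also shared words, with genes that are not rows of the table: Rpl10 (92.1%), Rpl9 (86.7%), Rps6 (84.6%), Fau (83.5%) and Rpl19 (80.4%). Their levels, and those of other members that share words, are open to the same doubt.

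Coding stretches that are identical in 3 of the core members near 0 and in their copies are printed because reads from them cannot be assigned by sequence. Each is from the GENCODE M21 transcript, 5′ to 3′, with the start codon in capitals where it is included.
Rps27 (chr3:90212522-90213651, minus strand), coding bases 1 to 60, also in Rps27rt (chr9:114982366-114982739): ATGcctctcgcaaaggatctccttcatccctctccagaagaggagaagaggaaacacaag
Rpl26 (chr11:68901583-68906989, plus strand), coding bases 1 to 60, also in Gm15772 (chr5:3236431-3236868): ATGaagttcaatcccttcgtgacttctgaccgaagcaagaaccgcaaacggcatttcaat
Rpl34 (chr3:130726831-130730398, minus strand), coding bases 133 to 192, also in Rpl34-ps1 (chr6:71124610-71124963): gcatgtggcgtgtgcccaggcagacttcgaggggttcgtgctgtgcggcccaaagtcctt
The longest identical run covered all 255 coding bases of Rps27, 185 of 354 in Rpl34 and 176 of 438 in Rpl26. Coordinates in parentheses are those of the genes on GRCm38.

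In the test over all 9783 genes that passed the filter, 0 of the 78 members were called at an adjusted p under 0.05 by edgeR, where 0.0204% of all genes were. DESeq2's Wald test and limma-voom also called 0 members. At an unadjusted p under 0.05 edgeR placed 9 members lower in Aire-/- libraries and 0 higher, against 2.77% and 2.80% of all genes. The sign was shared more widely: 70 of 78 members had a log2 fold change below 0, against 49.1% of all genes, and the median was -0.22 (quartiles -0.29 and -0.14) against 0.01. Both Aire-/- values lay below both Aire+/+ values for 59 members, against 17.3% of all genes, and above them for 0, against 17.1%. Most members have short transcripts, and of other genes under 1000 bases 29.3% were apart and lower and 64.2% below 0. With the dependence on length and GC content taken out, the members' median was -0.07. By subunit, 31 of 33 small and 39 of 45 large subunit genes lay below 0, with medians of -0.22 and -0.21. A log2 fold change past 1 in size was seen in 0 of 78 members, against 4.39% of all genes. Values ran from -0.69 for Rpl37 to 0.14 for Rpl36. Rpl37 had few counts, with 34.7 and 26.4 CPM in the Aire-/- and 39.6 and 59.0 CPM in the Aire+/+ libraries (SE 0.36, adjusted p = 0.908, edgeR).

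**Figure D3:**
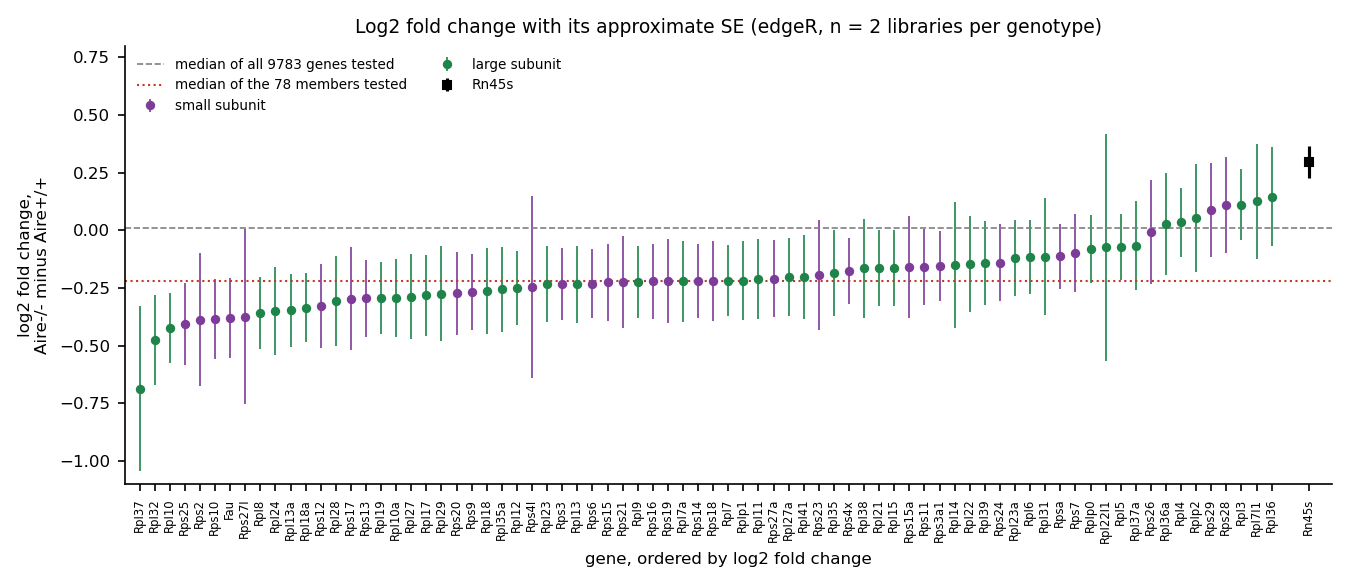
Log2 fold change (Aire-/- minus Aire+/+, edgeR, n = 2 libraries per genotype) with its approximate SE for members that passed the filter (all but 2 of the 78), ordered by value, with Rn45s at the right. Small subunit genes (purple) and large subunit genes (green) are mixed along the order, most lie below 0 around the median of -0.22 over all 78 (dotted), all genes tested have a median of 0.01 (dashed), and Rn45s stands at 0.29.

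Rpl10, Rpl32, Rpl8 and Rps25 were among the members with the smallest p on the lower side. Rpl10, which joins the large subunit last, near the peptidyl transferase centre, stood at 1452 and 1338 CPM in the Aire-/- libraries, against 1825 and 1916 CPM in the Aire+/+ libraries. The groups did not overlap, and the change on the log2 scale came to -0.42, with an SE of 0.15 and an adjusted p of 0.888 in edgeR's test. Rpl32, a large subunit protein, stood at 264 and 228 against 350 and 335 CPM (-0.48, SE 0.19). Rpl8, close to the catalytic centre, stood at 1095 and 1121 against 1468 and 1375 CPM (-0.36, SE 0.16). In both, the lowest Aire+/+ library lay above the highest Aire-/- library. Rps25, which internal ribosome entry sites need, stood at 440 and 396 against 545 and 563 CPM (-0.41). None of these 4 passed over all genes, and the adjusted p was 0.888 for each.

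Of the 8 members above 0, Rpl3, Rpl36, Rps28, Rpl7l1 and Rps29 had the smallest p, and the groups overlapped in each. Rpl3, a large subunit protein that reaches towards the catalytic centre, stood at 2026 and 1907 CPM in Aire-/- and 1967 and 1676 CPM in Aire+/+ libraries (0.11, SE 0.15, adjusted p = 0.985). Rpl36 stood at 186 and 166 against 171 and 148 CPM (0.14, SE 0.21). Rps28, at the messenger exit channel, stood at 222 and 190 against 187 and 195 CPM (0.11), and Rps29, a small zinc-binding protein, at 411 and 318 against 315 and 370 CPM (0.09). Rps28 and Rps29 were each highest in Aire-/- replicate 1, and without that library they stood at -9.3e-05 and -0.10. Rps29 also stood at -0.03 without Aire+/+ replicate 1, and Rpl3 at -0.0041 without Aire+/+ replicate 2.

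By role, members are set out beside the whole family, of which 70 of 78 lay below 0 and 59 of 78 had groups apart and lower, with a median of -0.22. All 5 proteins listed for messenger entry and decoding (Rps2, Rps3, Rps9, Rps15 and Rps23) lay below 0 with groups apart and a median of -0.23, near the values of the family. Of those at the messenger exit, Rps14 (-0.22) and Rpsa (-0.11) lay below 0 with groups apart, while Rps26 stood at -0.0072 and Rps28 above 0. Around the exit tunnel 7 of 8 tested genes lay below 0 (median -0.14), led by Rpl19 (-0.29) and Rpl17 (-0.28), and Rpl4, whose loop lines the tunnel, stood at 0.03. The remaining tunnel gene, Rpl26, was at 0 counts. Of the P stalk, which recruits the translational GTPases, Rplp1 stood at 720 and 723 against 777 and 902 CPM (-0.22), with groups apart. Rplp0 (-0.08) and Rplp2 (0.05, or -0.0037 when scaled by library totals only) overlapped between genotypes. Rpl5 (-0.07) and Rpl11 (-0.21) travel with 5S ribosomal RNA and restrain Mdm2 when assembly fails. Rpl11 stood at 525 and 545 against 600 and 640 CPM, and Rpl5 at 2087 and 2024 against 2233 and 2091 CPM (SE 0.14). Both genes kept their groups apart, Rpl5 narrowly.

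Genes made as fusions with a ubiquitin-like leader were below 0 as well. Fau, which carries Rps30 behind a ubiquitin-like protein, stood at 897 and 720 CPM in Aire-/- and 1074 and 1030 CPM in Aire+/+ libraries (-0.38, SE 0.17, adjusted p = 0.889, edgeR). Rps27a, which carries ubiquitin itself, stood at 691 and 662 against 789 and 775 CPM (-0.21, SE 0.17). The groups were apart in both. Rps6 stood at 1387 and 1404 against 1665 and 1614 CPM (-0.23), again with the groups apart.

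In the named paralog pairs the paralog stood far below its partner, except that Rps27l stood above Rps27. Rpl3 stood at 1402 CPM per kilobase against 0.780 for Rpl3l, and Rpl10 at 2043 against 0.893 for Rpl10l, both paralogs with few counts. Per kilobase, Rps4x stood at 2401 against 31.5 for the autosomal Rps4l, Rpl22 at 508 against 31.7 for Rpl22l1, Rpl7 at 1279 against 66.2 for Rpl7l1, and Rpl39 at 589 against 6.42 for Rpl39l. Rps27l, a p53-induced relative of Rps27, stood at 71.8, and Rps27, whose level is uncertain because of its copy, at 11.4. Of the tested paralogs, Rps27l (-0.37, SE 0.38), Rps4l (-0.25, SE 0.39), Rpl22l1 (-0.07, SE 0.49) and Rpl7l1 (0.13, SE 0.25) had errors as large as or larger than their values. Of their partners, Rps4x stood at -0.17, Rpl22 at -0.14 and Rpl7 at -0.22, and Rps27 was not tested. Rpl39, whose paralog Rpl39l was not tested, stood at -0.14. Rpl22 overlapped between genotypes and stood at 0.02 without Aire+/+ replicate 1, and Rpl22, Rpl22l1 and Rpl39 each stood at 0.02 once a trend with length and GC was taken out. Only for Rps4l among the 4 tested paralogs were the groups apart, at 23 and 26 against 34 and 31 counts.

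The difference was seen in each pair of libraries from different genotypes. Over the 78 members the median log2 ratio (CPM with 2 added) was -0.18 and -0.17 for Aire-/- replicate 1 over Aire+/+ replicates 1 and 2. For Aire-/- replicate 2 it was -0.25 and -0.23. Between the Aire+/+ libraries it was -0.00084, with 40 of 78 members below 0, and between Aire-/- replicates 1 and 2 it was 0.12. The Aire-/- libraries thus differed from each other by less than any pair between genotypes, but by more than the Aire+/+ libraries did. Medians over all genes tested ran from -0.0035 to 0.0079 in the 6 pairs. These pairs share libraries and are not independent.

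**Figure D4:**
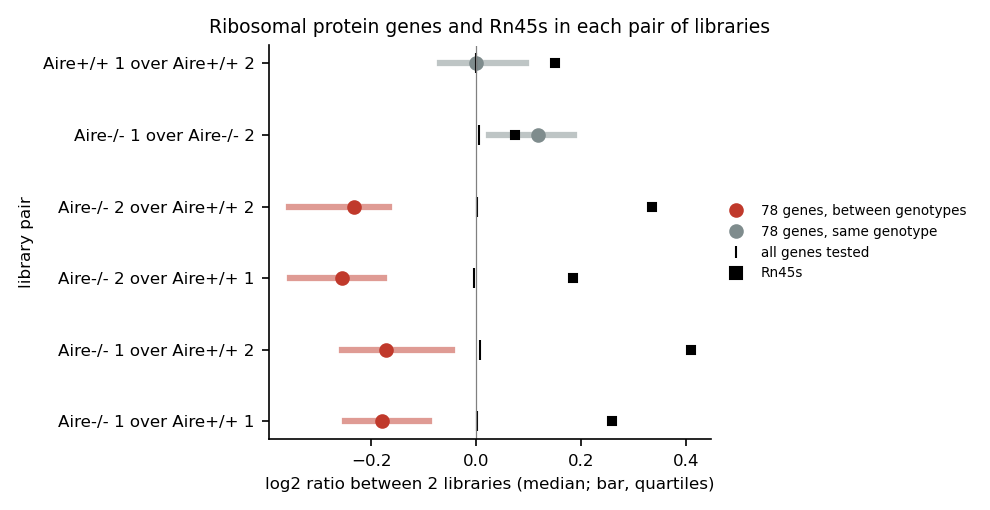
Median log2 ratio of the 78 members in each of the 6 pairs of libraries (points, with bars for the quartiles), red between genotypes and grey within a genotype, beside the median of all genes tested (black ticks) and Rn45s (black squares). Members lie between -0.25 and -0.17 in the 4 pairs between genotypes, at 0.12 and near 0 within genotypes, and Rn45s lies above 0 in all 6 pairs as written.

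Transcript length moved with the difference. Non-member genes with a transcript under 1000 bases had a median log2 fold change of -0.14, with 552 of 860 below 0. The median was -0.04 for those of 1 to 2 kilobases and 0.04 and 0.05 in the longer classes. Members under 1000 bases stood at -0.22, with 56 of 61 below 0, and the 15 of 1 to 2 kilobases at -0.20, with 12 below 0. When the dependence on length and GC content over all genes was taken out, the median over the members moved from -0.22 to -0.07, with 58 of 78 below 0. The part of RNA quality or of the cDNA step in that trend was not tested.

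**Figure D5:**
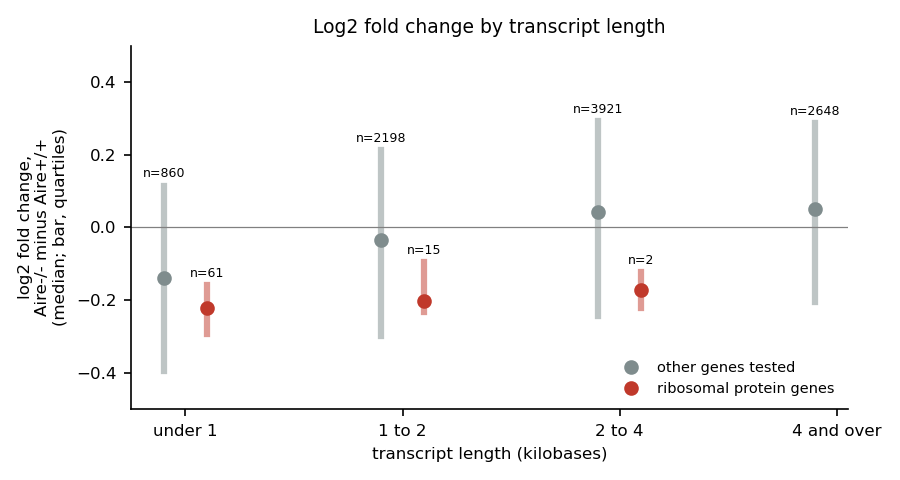
Median log2 fold change (points) with quartiles (bars) by transcript length in kilobases, for the other genes tested (grey) and the ribosomal protein genes (red), with the number of genes above each bar. The grey medians run from -0.14 under 1 kilobase to 0.05 at 4 and over, and the red medians lie below them at -0.22, -0.20 and -0.17. The last red median rests on 2 genes.

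Other genes of translation were read from lists chosen with earlier results of these data known. Further TOP transcripts lay below 0 for 16 of 19 tested (median -0.18), among them Pfdn5, a prefoldin subunit (-0.53), Snhg12, a snoRNA host (-1.09), and Tpt1, the abundant translationally controlled tumour protein, at 2481 ± 30.1 against 2907 ± 53.3 CPM (-0.23). Npm1, the nucleolar chaperone nucleophosmin, stood at 0.09. Genes listed for translation elongation, several of them TOP transcripts too, lay below 0 for 4 of 9 (median 0.04). Eef1a1, which delivers aminoacyl-tRNA, stood at 5046 ± 195 against 4218 ± 116 CPM (0.26, SE 0.13), with both Aire-/- libraries above both Aire+/+ libraries. Initiation factors lay below 0 for 17 of 35 (median 0.03), with Eif1, which guards start codon choice, at 197 ± 27.4 against 319 ± 17.6 CPM (-0.70, SE 0.20, adjusted p = 0.784) and Eif4e, the cap-binding protein, at 0.49. Mitochondrial ribosomal proteins lay below 0 for 56 of 77 (median -0.14), with Mrps18b (-0.97), Mrpl53 (-1.44) and Mrps22 (-0.98) lowest in p. Genes of ribosomal RNA synthesis and processing lay below 0 for 50 of 91 (median -0.08), with Utp3 at -0.74 and the late 60S factor Lsg1 at 0.77. Genes that control ribosome production lay below 0 for 11 of 25 (median 0.08), with Mtor, the kinase itself, at 0.63. The edgeR test called 0 genes of these 6 lists, where it called 0.0204% of all genes, and at an unadjusted p under 0.05 they held 6 lower and 3 higher genes of 256 tested, where 2.77% and 2.80% of all genes were lower and higher.

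Library totals ran from 1106891 to 1265239 counts. Markers of other cells differed between libraries. Counts of Ms4a1, Cd79a and Cd79b per count of the CD3 chains were 1.48 and 0.999 in Aire-/- and 3.10 and 1.22 in Aire+/+ libraries, so the sorted libraries held B cell RNA. All 6 tested B cell markers lay below 0 (summed CPM 1778 to 2378 in Aire-/- and 2272 to 3619 in Aire+/+), while 7 of 7 markers of interleukin-17 γδ T cells lay above 0 (5303 to 5846 against 3490 to 4797). Of 4 plasma cell markers, Igj, the joining chain of secreted antibodies, had 0 and 4 counts in Aire-/- against 1674 and 827 in Aire+/+ libraries and passed (adjusted p = 8.07e-06, edgeR). Mzb1 had 60 and 43 against 141 and 88 counts and did not pass, and Sdc1 and Xbp1 overlapped between genotypes. The 6 macrophage and monocyte markers overlapped in their sum, at 98.6 and 158 against 453 and 119 CPM. Lyz2 had 1 and 61 against 186 and 2 counts, and Cd14 had 0 and 0 against 32 and 11. Hba-a1 and Hbb-b1 were at 0 counts, and epithelial markers summed to 6.39 to 16.2 CPM. Within genotypes, the ribosomal protein share was 5.58% and 5.20% where the B cell ratio was 1.48 and 0.999 (Aire-/-), and 6.39% and 6.45% where it was 3.10 and 1.22 (Aire+/+). The part of B and plasma cell RNA in the difference between genotypes was not tested.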

How the data were processed

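RNA-seq counts of 4 libraries were analysed. The deposited table holds raw counts per gene symbol, and TopHat2 2.0.10, Cufflinks 2.2.1 and mm10 are named per the submitters' processing notes. No source used here gives the counter, its annotation, the use of strand or the treatment of multi-mapped reads. Of the 85 members, 49 have a gene span that overlaps another annotated gene on either strand, and 30 have a snoRNA inside. Whether these overlaps reach exons was not examined, and how reads in them were counted is not known.

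All 22865 rows entered the library totals used for shares (1144060 and 1106891 counts in Aire-/-, 1265239 and 1153344 in Aire+/+ libraries). The main fit and CPM used the counts of tested genes, 1114620 and 1084724 in Aire-/- and 1236826 and 1123042 in Aire+/+ libraries. With filterByExpr (minimum count 10, minimum total 15), 9783 genes were tested in edgeR 4.0.16 (R 4.3.3) with TMM factors, glmQLFit and glmQLFTest on genotype, and Benjamini-Hochberg adjustment over all of them at 0.05. The SE of a log2 fold change is approximate. Alternatives used limma 3.58.1, DESeq2 1.42.0, other scaling and filters, a replicate block, each library left out, Rn45s left out, and removal of a loess trend (span 0.5) with transcript length and GC content, known for 99.2% of tested genes. The fit was tested on simulated data. Groups and intervals were computed in Python 3.11.15.

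Members and lists were chosen with earlier results of these data known. Named genes are Rn45s, the 8 highest and 5 lowest tested members per kilobase, the 5 smallest p in each direction, members that did not pass the filter, paralog pairs, fusions, P stalk, Rpsa, Rps6, Rpl5 and Rpl11, up to 3 genes per direction of each other list. Members of the role lists are named beside them as description. Promoters are from RefSeq (GRCm38.p6) and transcripts from GENCODE M21. Lengths, levels per kilobase and length classes rest on a single chosen transcript per gene, which need not be the one expressed. Single values of a few members, and 1 shared stretch, are not reported here.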

Additional observations from a re-analysis of the deposited data

How the results depend on the processing

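No ribosomal protein gene was called under any alternative run. The median log2 fold change over the members stayed below 0 in all of them. It was -0.072 with the length and GC trend removed (-0.070 for small and -0.073 for large subunit genes) and -0.28 with library totals only, and ranged from -0.23 to -0.18 as each library was left out, the smallest size being without Aire-/- replicate 2. Below 0 were 66 to 73 of 78 members as each library was left out, and 29 of 32 among members sharing under 50% of their 50-base words with other genes, an alternative chosen after seeing the data.

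Over the whole table, edgeR called 0 genes higher and 2 lower. Limma-voom called 1 lower, and no filter gave 21 higher and 26 lower. As each library was left out, 5 to 21 were higher and 6 to 42 lower, most without Aire+/+ replicate 2 (21 and 42). With the replicate number as a block, 2 were higher and 4 lower and Rn45s passed (0.30, adjusted p = 0.0405, against 5.38e-05 to 1 over all alternatives). Deviations of same-numbered libraries correlated at -0.077, so the numbers are not shown to pair them. Rn45s stood at 0.30 with no filter (adjusted p = 0.000956, edgeR) and at 0.22 to 0.36 as each library was left out.

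Without Rn45s in the total, the ribosomal protein shares were 7.01% and 6.45% in Aire-/- and 7.74% and 7.70% in Aire+/+ libraries. Without the 3 most abundant genes of each subunit, the small to large ratios were 0.644, 0.636, 0.653 and 0.638 in the same order.

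Of 31 tested members chosen by the naming rule, 7 changed sign somewhere and none of them passed the test. Members named only from the role lists were not followed here. With the trend removed, Rpl22 and Rpl22l1 stood at 0.021 and 0.022 and Rpl39 at 0.016, and with library totals only Rplp2 stood at -0.0037. As each library was left out, Rpl22 ranged from -0.30 to 0.020, Rpl22l1 from -0.29 to 0.15, Rpl3 from -0.0041 to 0.22, Rplp2 from -0.087 to 0.18, Rps28 from -9.3e-05 to 0.21 and Rps29 from -0.10 to 0.26. The causes were not tested. With 2 libraries per genotype, members near 20 counts carry errors as large as their values.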
